A study of Mus musculus with 2 samples.

Results

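The 8 genes described here make, carry, clear and read retinoic acid, and they were found by symbol among the 27998 genes of 2 single-cell libraries of mouse lung. Aldh1a1, Aldh1a2 and Aldh1a3 encode retinaldehyde dehydrogenases, which make retinoic acid. Rbp4 encodes the secreted carrier of retinol, and Cyp26b1 encodes a hydroxylase that clears retinoic acid. Rarb, Rarg and Rxra encode nuclear receptors that bind it or pair with its receptors. The genes were chosen with earlier results of the same data known, so every value below is a description and none is a test.

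Both animals were male C57Bl/6J mice aged 3 months with no allele named in the labels, and both were killed 14 days after 100 µg of titanium dioxide or of crocidolite asbestos was instilled into the trachea. Crocidolite, a mineral fibre, causes lung scarring, and titanium dioxide serves as a particle control. The lungs were perfused and digested with dispase and DNase I, and red cells were lysed, so that cells released by this digest were measured. The labels call 1 library control and 1 fibrosis, without saying which particle went into which animal. Each library came from 1 mouse, so no difference has a replicate check, and all intervals are 95% intervals of counting error alone.

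Retinol reaches tissues bound to its carrier, is oxidised to retinaldehyde and then to retinoic acid, and the acid acts within the cell or on its neighbours. There it binds receptor pairs on DNA, and enzymes of the Cyp26 family oxidise it, so that a cell's exposure depends on both synthesis and clearance. In the lung, retinoic acid is known for its part in the forming of alveoli. Rarb is a textbook target of the pathway.

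The control library held 8280 cells with 36632591 unique molecular identifiers (UMIs, each standing for 1 captured transcript), and the fibrosis library 7173 cells with 38090308 UMIs. After filtering, 8025 and 6945 cells remained (median depth 3811 and 4340 UMIs), and the libraries shared 89 cell barcodes. Cells were sorted into classes by markers of 23 cell types and are called "-like", because names rebuilt from transcripts may differ from the study's own. Cells that passed both the club and the ciliated gate form a class of their own, with a median of 27811 control and 27828 fibrosis UMIs. The medians were 5119 and 5965 in ciliated-like cells and 14810 and 12738 in club-like cells. Cells with markers of more than 1 lineage (339 control and 378 fibrosis cells) and cells without a gate (408 and 495) were kept apart. Classes with at least 20 cells in each library, 19 in all, were compared. Levels are in CPM, the gene's UMIs per 1000000 UMIs of the class, and a higher summed level can reflect more transcripts per cell or more cells of an expressing kind within the class.

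The clearance gene and the carrier gene had the largest ratios between the libraries. The synthesis genes lay mainly in airway, mesothelial and fibroblast-like cells in both, and Rarg and Rxra were found at low levels in most classes. Cyp26b1 stood at 12.03 CPM in control and 326 CPM in fibrosis blood endothelial-like cells. Rbp4 had 2 UMIs in 878 control macrophage-like cells and 889 UMIs in 1372 fibrosis ones, of which 1 cell held 533. Aldh1a1 was highest in airway-like cells and Aldh1a2 in mesothelial-like cells in both libraries. Between the libraries these 2 genes differed by less than 2-fold in those classes.

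**Figure D1:**
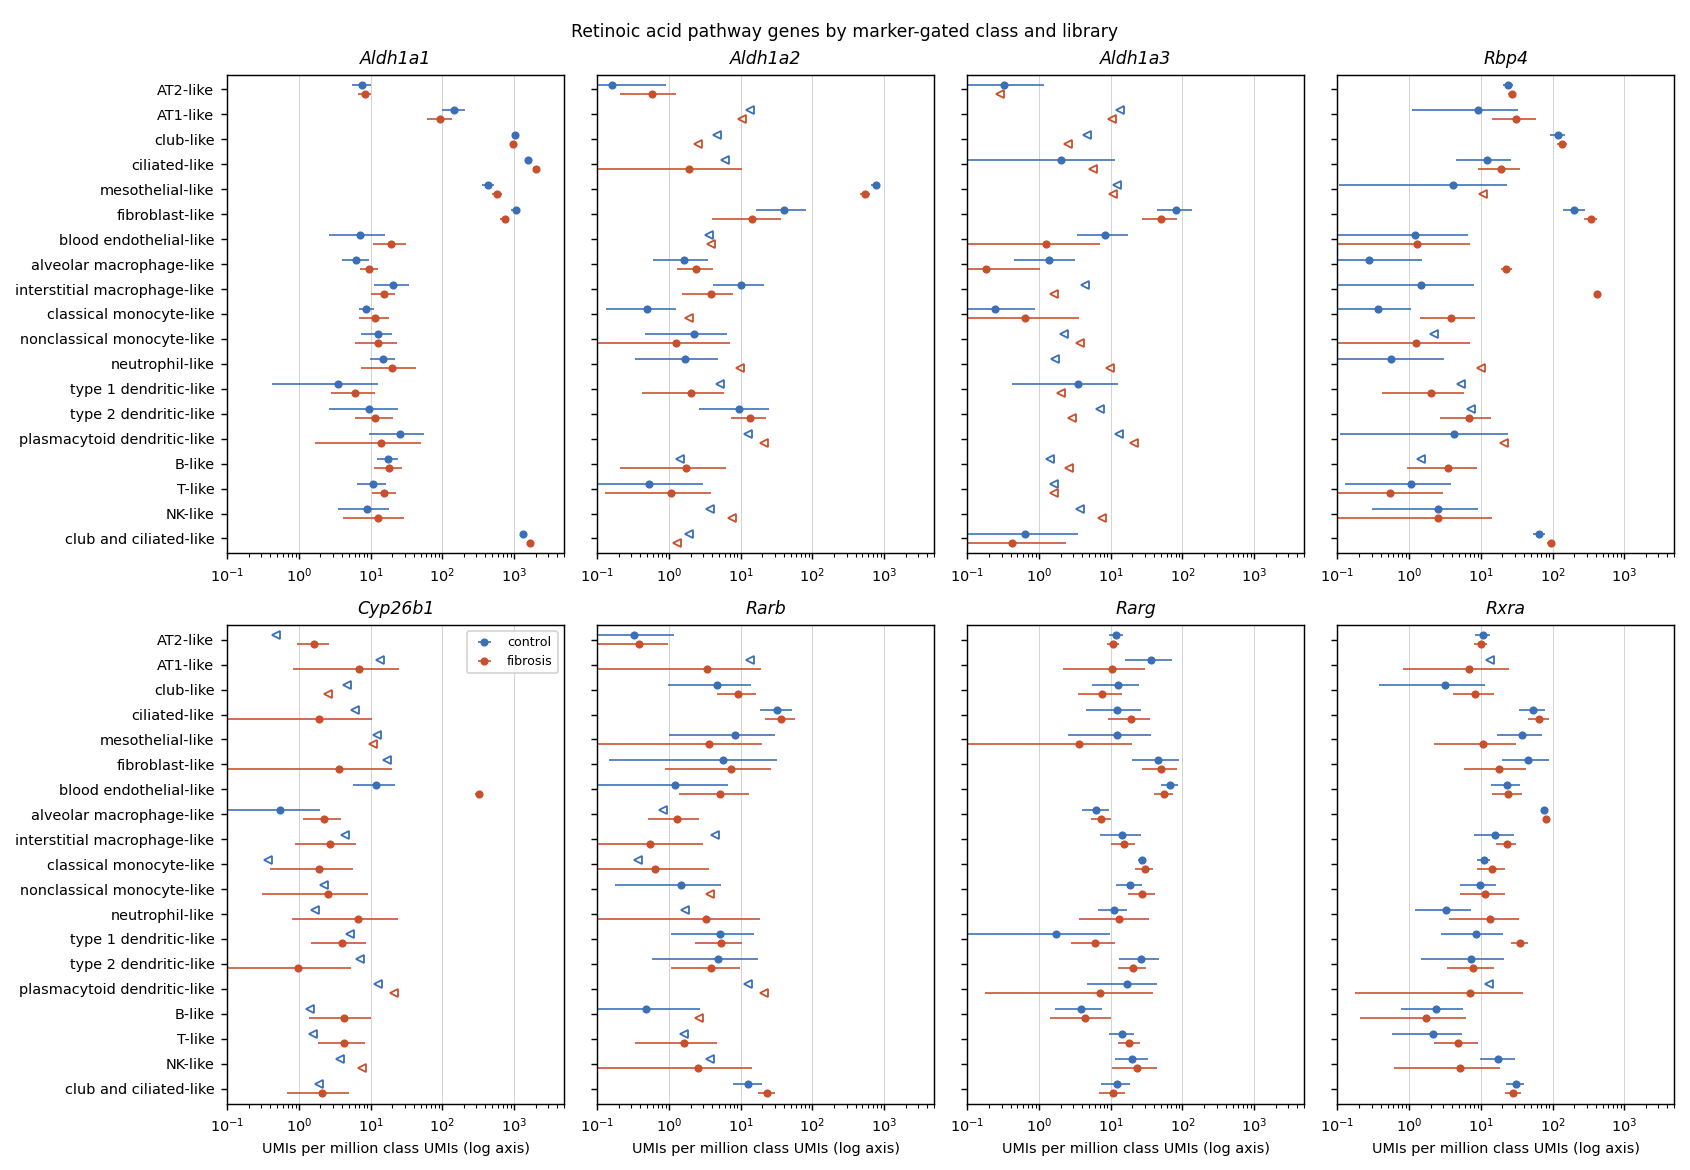
Each panel shows 1 gene, with its level in CPM (log axis) in 19 marker-gated classes of the control (blue) and fibrosis (red) library. Points are CPM of summed UMIs with 95% counting intervals, and open triangles mark the limit of 3 counts where no UMI was found. Cyp26b1 stands apart at 326 CPM in fibrosis blood endothelial-like cells, and Aldh1a2 at 767 and 538 CPM in mesothelial-like cells.

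Aldh1a1 (ENSMUSG00000053279, GRCm38 chromosome 19, 20492715 to 20643465, plus strand) had 4184 control and 7238 fibrosis UMIs in kept cells. In ciliated-like cells it stood at 1548 CPM (763 UMIs in 83 cells, 1440.3 to 1662) in the control library. The fibrosis value there was 2029 CPM (1068 UMIs in 75 cells, 1909 to 2154), a log2 ratio of 0.39 (0.25 to 0.53). The intervals of these 2 levels did not overlap. Markers of other classes differed there too: the 7 AT2 markers summed to 1905 control and 16769 fibrosis CPM, all detected in both, and the 7 club markers to 17183 and 8309 CPM, 6 detected in each. Their part in the result was not tested. The median ciliated-like cell held 6 control and 10 fibrosis UMIs of Aldh1a1, and the highest cells held 43 and 50. Cells with both airway gates stood at 1318.5 CPM (2081 UMIs in 55 cells) and 1680.0 CPM (3943 UMIs in 79 cells). This deep class alone held 49.7% of the control and 54.5% of the fibrosis Aldh1a1 UMIs. Club-like cells, which secrete airway lining proteins, stood at 1021 CPM (944 to 1102) and 956 CPM (901 to 1013), so their levels did not differ beyond counting error.

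Outside the airway, Aldh1a1 was high in the stroma. Fibroblast-like cells held 1050.3 CPM (183 UMIs in 43 cells, 904 to 1214) in the control library. The fibrosis value was 739.8 CPM (205 UMIs in 51 cells, 642 to 848), a log2 ratio of -0.51 (-0.80 to -0.21). A single fibrosis cell carried 61 of those 205 UMIs. Mesothelial-like cells, the lining of the lung surface, went the other way, with 437 control CPM (358 to 529) and 584 fibrosis CPM (498 to 681). AT1-like cells, the flat cells of the alveolar wall, held 145 CPM (32 UMIs) and 93.0 CPM (27 UMIs), and AT2-like cells only 7.56 and 8.29 CPM. B-like cells, which should lack the gene, stood at 17.3 and 18.1 CPM, so that the AT2-like level was not above background. In the control library the order was ciliated-like, both airway gates, fibroblast-like, club-like and mesothelial-like. Fibroblast-like and club-like levels did not differ there beyond counting error.

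Aldh1a1 has a close copy, Aldh1a7, at 178 control and 242 fibrosis CPM in the cells with both airway gates. Of all stretches of 25 bases in the main Aldh1a1 transcript, 17.8% also occurred in the Aldh1a7 transcript. In the last 500 bases, which the 3′ assay samples most, 0 of 476 such stretches were shared. Of stretches of 98 bases over the whole transcript, 3 of 1956 (0.153%) were shared. A 3′ read from the last 500 bases could therefore be assigned. The counting of reads that match over shorter stretches further upstream is uncertain.

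Aldh1a2 (ENSMUSG00000013584, chromosome 9, 71215789 to 71296243, plus strand), the main retinoic acid producer of the embryo, was concentrated in mesothelial-like cells. The 32 control cells held 186 UMIs, or 767 CPM (661 to 885), and the 32 fibrosis cells 151 UMIs, or 538 CPM (456 to 631). The log2 ratio was -0.51 (-0.83 to -0.19), and the highest cells held 22 and 14 UMIs. At least 1 Aldh1a2 UMI was found in 31 of the 32 control and 29 of the 32 fibrosis cells. These 32 cells per library held 74.4% (68.5 to 79.7) of the control and 48.9% (43.2 to 54.6) of the fibrosis Aldh1a2 UMIs. Most mesothelial-like cells carried both enzymes, since Aldh1a1 and Aldh1a2 were found together in 25 control and 24 fibrosis cells.

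The second site of Aldh1a2 was the migratory dendritic-like class, cells that carry antigen from tissue to lymph node. Its 9 control cells held 14 UMIs, 7 of them in 1 cell, and its 78 fibrosis cells held 87 UMIs. The levels were 294 CPM (161 to 493) and 204 CPM (163 to 251), which did not differ beyond counting error, and a UMI was found in 4 and in 35 cells. This class thus held 5.60% of the control and 28.2% of the fibrosis Aldh1a2 UMIs, while its cells numbered 9 and 78. Aldh1a1 was found in 2 of the 9 control and 6 of the 78 fibrosis migratory dendritic-like cells, at 14.0 CPM in the fibrosis library, which is not above the B-like level, and 3 of those 6 cells also held Aldh1a2. Type 2 dendritic-like cells stood far lower, at 9.57 CPM (4 UMIs) and 13.5 CPM (14 UMIs).

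Aldh1a3 (ENSMUSG00000015134, chromosome 7, 66390890 to 66427517, minus strand) had the fewest UMIs of the retinaldehyde dehydrogenases, with 35 control and 18 fibrosis UMIs. Fibroblast-like cells held 14 in each library, from 5 and 6 cells, at 80.4 CPM (43.9 to 135) and 50.5 CPM (27.6 to 84.8). In the fibrosis library 1 fibroblast-like cell held 8 of these, and in the control library 1 blood endothelial-like cell held all 7 UMIs of its class. In fibroblast-like cells no difference between the libraries was detectable at this depth.

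**Figure D2:**
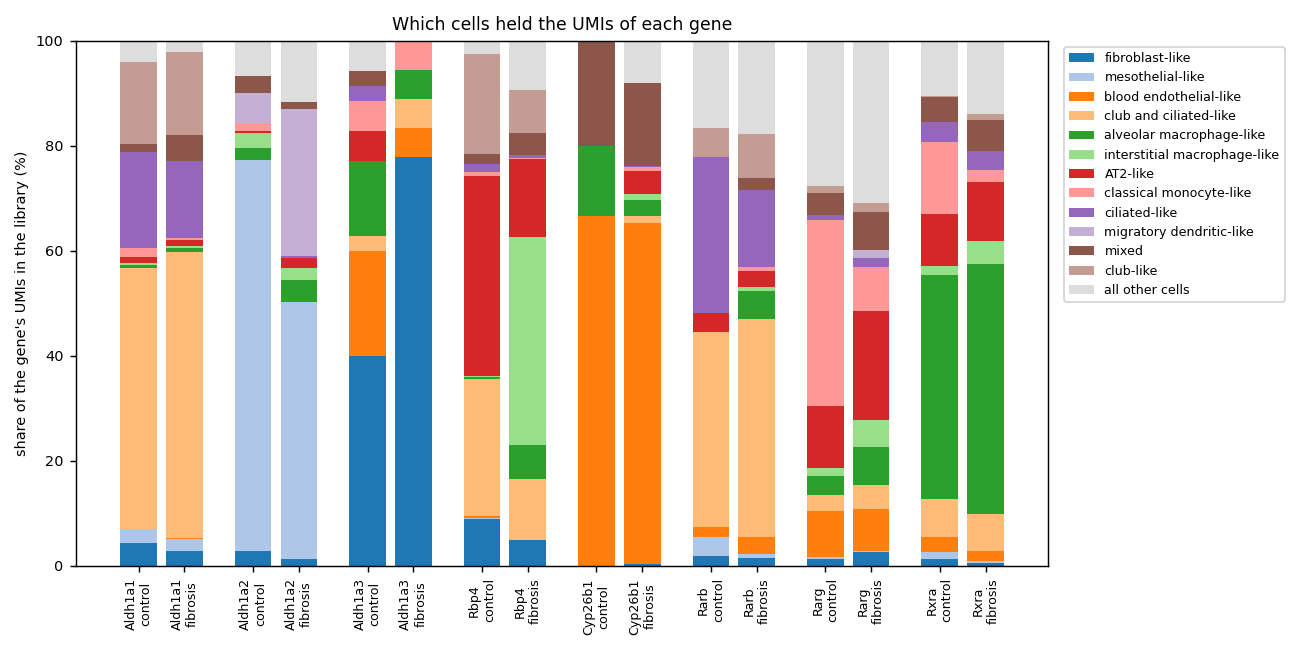
Stacked bars give the share of each gene's UMIs (%) that lay in each class, for the control and the fibrosis library, with all kept cells as 100%. Aldh1a2 lay mainly in mesothelial-like cells, with 28.2% in migratory dendritic-like cells of the fibrosis library. The interstitial macrophage-like block of Rbp4, assigned by gate, reached 39.8% in the fibrosis library. Clustering placed its highest cells among alveolar macrophage-like cells.

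Rbp4 (ENSMUSG00000024990, chromosome 19, 38116629 to 38125281, minus strand) is made in bulk by the liver, and other tissues make it too. Kept cells held 393 control and 1927 fibrosis UMIs of it. Fibroblast-like cells had 201 control CPM (35 UMIs, 139.9 to 279) and 339 fibrosis CPM (94 UMIs, 274 to 415), a log2 ratio of 0.76 (0.18 to 1.36). The ratio was 0.14 (-0.51 to 0.81) when a marker counted at any UMI, a setting chosen after seeing the data. In these fibroblast-like cells the 7 club markers summed to 4345 control CPM (3 detected) and 27456 fibrosis CPM (5 detected), and their part in the result was not tested. Club-like cells had 117 CPM (75 UMIs) and 135 CPM (160 UMIs), and cells with both airway gates 65.3 and 95.4 CPM. AT2-like cells had a low level of 24.1 CPM (150 UMIs, 20.4 to 28.3) and 27.1 CPM (284 UMIs, 24.0 to 30.4). In AT2-like and club-like cells the libraries did not differ beyond counting error. For cells with both airway gates (103 and 224 UMIs) the log2 ratio was 0.55 (0.21 to 0.90). The median log2 ratio of all genes in that class was 0.20. Rbp4 was at 0 in the 927 control B-like cells, which allows a share of cells with a UMI of up to 0.324%, and it had 4 UMIs in the 409 fibrosis ones.

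The macrophages differed more. Alveolar macrophage-like cells held 1 Rbp4 UMI in 702 control cells and 123 UMIs in 942 fibrosis cells, and interstitial macrophage-like cells held 1 in 176 and 766 in 430. The log2 ratios, against single control UMIs, were 6.38 (3.87 to 11.7) and 8.16 (5.68 to 13.5). Pooled, the fibrosis macrophage-like cells stood at 122 CPM (114 to 131), and at 49.1 CPM without their highest cell. The control cells stood at 0.459 CPM (0.0556 to 1.66). Only 44 of the 1372 fibrosis cells held a UMI (3.21%, 2.34 to 4.28), against 2 of 878 control cells (0.228%). Rbp4 was thus strong in few cells, and 10 of them held 10 UMIs or more.

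The highest cell carried 533 Rbp4 UMIs, 3.08% of its 17326 UMIs and 27.7% of all Rbp4 UMIs of the fibrosis library. The next carried 116 of its 8020 UMIs. Both were interstitial macrophage-like by gate with 3 markers each, while clustering placed both among alveolar macrophage-like cells. Another cell, with 85 UMIs, passed no gate and also clustered there. So did the interstitial macrophage-like cells with 23, 20, 17 and 14 UMIs. The split of Rbp4 between the macrophage classes, and the level of each class, thus depends on the method. The 3 highest cells, with 533, 116 and 85 Rbp4 UMIs, carried UMIs of Gpnmb, a membrane protein of macrophages (56, 80 and 14). They also carried Mmp12, the macrophage elastase (192, 32 and 59), and Chil3, a chitinase-like protein of mouse alveolar macrophages (1820, 177 and 370). None of the 3 carried a UMI of Alb, the liver's albumin, whose level in other cells is not given here. Ttr, the partner of the carrier in plasma, had 0 UMIs in all kept cells, so its absence from these 3 says nothing of them.

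Fibrosis macrophage-like cells with 3 or more Mmp12 UMIs (295 cells) stood at 439 CPM of Rbp4 (410 to 469), and at 173 CPM without the highest cell. The other 1077 cells stood at 2.47 CPM (1.31 to 4.22). Of control cells, 14 had 3 or more Mmp12 UMIs, and none of them held Rbp4. The split by Gpnmb gave 501 CPM (185 without the highest cell) against 8.76 CPM. In the control library 145 cells had 3 or more Gpnmb UMIs, and they held 1 Rbp4 UMI (1.02 CPM). Spp1, the gene of osteopontin, reached 3 UMIs in 183 control cells with 0 Rbp4 UMIs and in 435 fibrosis cells at 248 CPM. Without the highest cell these 435 cells stood at 71.2 CPM. The other 937 fibrosis cells stood at 33.6 CPM, and at 6.35 CPM without their own highest cell. Cells above these cuts were deeper, with medians of 5978 UMIs against 4488 for Mmp12 and 7540 against 4381 for Gpnmb, and the part of depth was not tested. These splitting genes were chosen after the values were seen.

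**Figure D3:**
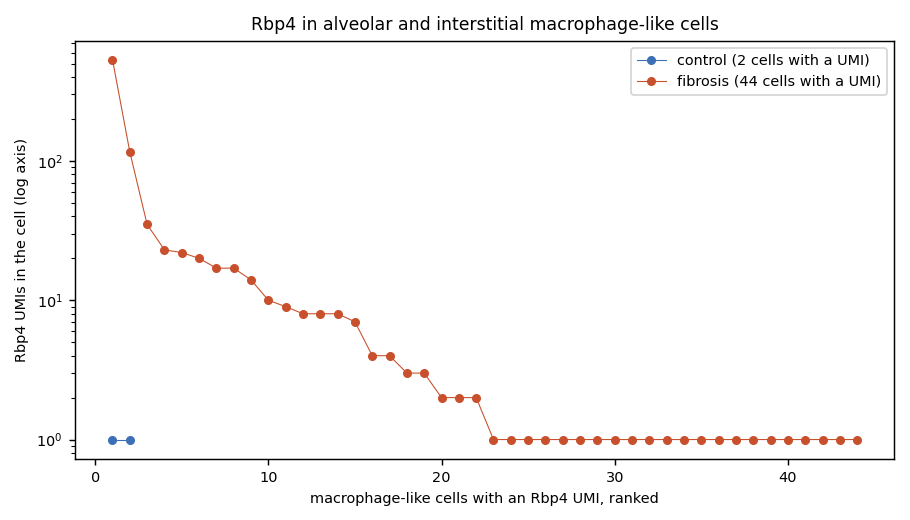
The alveolar and interstitial macrophage-like cells with an Rbp4 UMI are ranked along the x axis, with their Rbp4 UMIs on a log y axis, in the control (blue) and fibrosis (red) library. The 44 fibrosis cells run from 533 UMIs down to 1, and the 2 control cells hold 1 UMI each.

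Cyp26b1 (ENSMUSG00000063415, chromosome 6, 84571414 to 84593908, minus strand) had 15 control UMIs and 395 fibrosis UMIs. Blood endothelial-like cells held 10 of them in 288 control cells, at 12.03 CPM (5.77 to 22.1). In the fibrosis library they held 257 UMIs in 199 cells, at 326 CPM (287 to 368). The log2 ratio was 4.76 (3.86 to 5.84), or 27.1-fold, the second largest among the 8069 genes with at least 20 UMIs in this class. The difference was spread over cells, since 8 control and 88 fibrosis cells held a UMI and the highest cells held 3 and 14. Among fibrosis cells with the transcript, 33 held 1 UMI and 23 held 2.

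The share of blood endothelial-like cells with a Cyp26b1 UMI was 2.78% for control and 44.2% for fibrosis. After each cell was thinned to 1000 UMIs it was 0.347% (0.00879 to 1.92) and 22.6% (17.0 to 29.1). Unthinned, 0 of 927 control B-like cells (which allows up to 0.324%) and 1.22% of fibrosis B-like cells held one, and thinned fibrosis B-like cells were at 0.489%. Median depths were 2219.5 and 2989 UMIs in blood endothelial-like cells and 1858 and 2582 in B-like cells. The fibrosis share lay far above that of B-like cells, whereas the thinned control share rested on 1 cell. Both libraries had about the same share of their Cyp26b1 UMIs in the class, 66.7% (38.4 to 88.2) and 65.1% (60.1 to 69.8).

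Within the class, Cyp26b1 was higher in cells with Vwf, the gene of von Willebrand factor, which is highest in larger vessels. All 10 control UMIs lay in the 72 cells with a Vwf UMI (37.3 CPM, 17.9 to 68.5), and 0 in the 216 without, which allows up to 5.33 CPM. In the fibrosis library 89 cells with Vwf stood at 456 CPM (396 to 522) and 110 cells without it at 141 CPM (104 to 189). Car4, a gene of a capillary subset, went the other way, with 155 CPM (110 to 213) in fibrosis cells with Car4 and 403 CPM (352 to 461) in those without. Cells with Vwf made up 25% of the control class and 44.7% of the fibrosis class, and the part of this share in the difference of the whole class was not tested. The Cyp26b1 level was higher in the fibrosis library among cells with Vwf and among cells without it. Gja5, an arterial gene, marked 24 cells in each library, at 18.6 CPM (2 UMIs) and 551 CPM (75 UMIs). Other vessel genes did not line up the same way. Gpihbp1, a capillary gene, went with more Cyp26b1, at 423 CPM with and 242 CPM without it in fibrosis cells and at 27.1 and 2.00 CPM in control cells. Plvap did so too, at 405 and 140.0 CPM in fibrosis cells, whereas for Ednrb, a gene of the Car4 subset, the values were 166 and 385 CPM. Fibrosis cells with and without Slc6a2, a vein gene, stood at 321 and 328 CPM. Depth differed between these sets too. In the fibrosis library median UMIs with and without the gene were 3598 and 2636.5 for Vwf, and 3581 and 2979 for Gja5. They were 3488 and 2440 for Plvap, 3252 and 2689 for Gpihbp1, and 3598 and 2741.5 for Slc6a2. For Car4 they were 2554 and 3340.5, and for Ednrb 2499 and 3175. What depth contributed to these splits was not tested. These vessel genes were chosen after the values were seen.

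**Figure D4:**
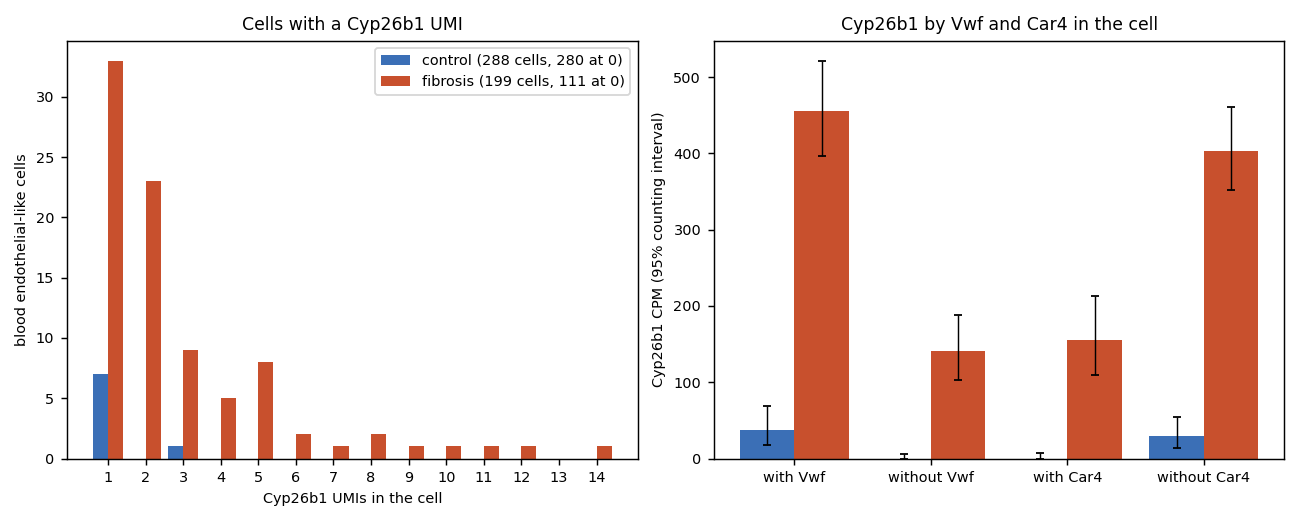
Left, the number of blood endothelial-like cells by their count of Cyp26b1 UMIs (cells at 0 are given in the key), and right, the Cyp26b1 level in CPM with 95% counting intervals in cells with and without a UMI of Vwf or Car4, for the control (blue) and fibrosis (red) library. The fibrosis cells reach 14 UMIs and the control cells 3, and fibrosis cells with Vwf stand at 456 CPM.

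Markers of other classes differed in blood endothelial-like cells too, some higher and some lower in the fibrosis library. The lower lists included those of club (7 genes, 6375 and 3413 CPM) and neutrophil cells (8 genes, 1971 and 793 CPM). Their part in the result was not tested. The 7 AT2 markers summed to 3068 CPM in control and 4763 CPM in fibrosis blood endothelial-like cells, with all 7 detected in both. Within the fibrosis class they summed to 6763 CPM in cells with Cyp26b1 and 2367 CPM in cells without it, and within the control class to 1516 and 3139 CPM. The part of these transcripts in the result was not tested. AT2-like cells held Cyp26b1 at 1.62 CPM (17 UMIs in 1711 fibrosis cells). The 6 lymphatic markers summed to 965 and 1153 CPM, with 1488 CPM in fibrosis cells that held Cyp26b1 and 753 CPM in the others. In both sets of fibrosis cells 4 of the 6 were detected. Prox1 and Reln were at 0 in those with Cyp26b1, and Mmrn1 and Reln in those without. The part of the lymphatic markers in the result was not tested. The 22 fibrosis lymphatic endothelial-like cells held 1 Cyp26b1 UMI. The 9 blood endothelial markers summed to 17128 control CPM and 12380.0 fibrosis CPM. The 378 fibrosis cells kept apart as mixed held a further 62 UMIs in 29 cells.

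The stretch upstream of every annotated Cyp26b1 start (RefSeq promoter on GRCm38.p6, chr6:84593909-84594060, minus strand, 152 bases) is shown because this gene had the second largest ratio between the libraries in blood endothelial-like cells. It was searched on both strands for the half-sites AGGTCA or AGTTCA or GGGTCA or GGTTCA, which retinoic acid receptors are known to bind.
Cyp26b1: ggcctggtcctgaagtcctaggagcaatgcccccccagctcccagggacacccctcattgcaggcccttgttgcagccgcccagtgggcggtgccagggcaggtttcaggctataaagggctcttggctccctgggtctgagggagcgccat
No half-site occurred in it, hence no capitals, while 26.0% of 32851 promoter windows hold at least 1 in their first 152 bases.

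Rarb (ENSMUSG00000017491, chromosome 14, 16430839 to 16819156, minus strand) encodes the receptor that is itself a target of the pathway. It was sparse, with 54 control and 130 fibrosis UMIs. Ciliated-like cells stood highest, at 32.5 CPM (16 UMIs, 18.6 to 52.7) and 36.1 CPM (19 UMIs, 21.7 to 56.4). Cells with both airway gates held 12.7 control CPM (20 UMIs, 7.74 to 19.6) and 23.0 fibrosis CPM (54 UMIs, 17.3 to 30.0). Their log2 ratio was 0.86 (0.097 to 1.68), while the median log2 ratio of all genes in this class was 0.20. Club-like cells held 3 and 11 UMIs. Together the library totals gave 1.51 and 3.49 CPM over all kept cells.

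The 3′ end of Rarb overlaps Top2b on the opposite strand by 4624 bases, and whether reads were counted by strand is not given in the sources used here. B-like cells held Top2b at 53.3 and 78.4 CPM and Rarb at 0.480 and 0 CPM. Ciliated-like cells stood highest among the 19 classes for both genes, with Top2b at 120 and 98.8 CPM. In cells with both airway gates Top2b stood at 41.8 and 61.4 CPM, higher in the fibrosis library as Rarb was. The part of Top2b reads in the Rarb values was not tested.

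The RefSeq promoters matched 7 of the 8 genes, in 11 windows of 300 bases each, and were searched for direct repeats of the same 4 half-sites spaced by 1, 2 or 5 bases, on both strands. Only the Rarb window held one, spaced by 5 bases, from -53 to -37 relative to the start site. Such repeats occur in 0.588% of all 32851 windows, and those spaced by 5 in 0.0974%. The repeat is shown with 6 bases on either side (GRCm38.p6, chr14:16575507-16575535, minus strand), with the half-sites in capitals.
Rarb: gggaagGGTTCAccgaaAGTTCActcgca
This repeat is a textbook response element of retinoic acid, but a match of letters says nothing on its use in these cells.

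Rarg (ENSMUSG00000001288, chromosome 15, 102234938 to 102257517, minus strand), a receptor found in many tissues, was spread thinly over 21 control and 22 fibrosis classes, with 633 and 547 UMIs. Blood endothelial-like cells stood highest, at 66.2 CPM (55 UMIs, 49.9 to 86.1) and 55.8 CPM (44 UMIs, 40.6 to 74.9). Fibroblast-like cells came next, at 45.9 CPM (8 UMIs) and 50.5 CPM (14 UMIs), and did not differ from the first beyond counting error. Classical monocyte-like cells held 27.6 CPM (24.2 to 31.5) and 29.6 CPM (21.6 to 39.4). They held 35.5% of the control and 8.41% of the fibrosis Rarg UMIs, and the class numbered 1559 control and 364 fibrosis cells. B-like cells stood at 3.84 and 4.31 CPM. No class with at least 20 Rarg UMIs reached a 2-fold difference, in 12 classes.

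Rxra (ENSMUSG00000015846, chromosome 2, 27676440 to 27762957, plus strand) encodes the shared partner of the retinoic acid receptors and of several other nuclear receptors. Alveolar macrophage-like cells stood highest, at 76.9 CPM (282 UMIs, 68.2 to 86.4) and 82.0 CPM (445 UMIs, 74.5 to 89.96), and held 42.7% and 47.5% of its UMIs. Ciliated-like cells followed, at 52.8 CPM (34.5 to 77.3) and 64.6 CPM (44.7 to 90.2), and cells with both airway gates at 30.4 and 28.1 CPM. None of these differed between the libraries beyond counting error. B-like cells stood at 2.40 and 1.72 CPM.

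Type 1 dendritic-like cells, which present antigen to cytotoxic T cells, were the exception for Rxra. The 88 control cells held 5 UMIs, at 8.67 CPM (2.81 to 20.2), and the 210 fibrosis cells held 52, at 35.0 CPM (26.1 to 45.8). The log2 ratio was 2.01 (0.70 to 3.69), and no fibrosis cell held more than 2 UMIs. The share of cells with a UMI was 5.68% and 20.95%, against 0.539% and 0.489% of B-like cells. After thinning to 1000 UMIs it was 0 of 88 cells, which allows up to 3.41%, and 5.24%. Alveolar macrophage markers summed to 52.0 CPM in the control and 107 CPM in the fibrosis type 1 dendritic-like cells, with 6 and 7 of 9 detected, and their part in the result was not tested. In alveolar macrophage-like cells that list summed to 5276 and 4351 CPM.

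Counted over genes and classes together, 47 pairs of the 8 genes and 19 classes had at least 20 UMIs over both libraries. With 0.5 UMI added to each sum, 5 pairs were at least 2-fold higher in the fibrosis library and 0 lower. Of all 129669 pairs of genes and classes, 8.10% passed 2-fold in either direction, 5.31% higher and 2.79% lower. The 5 pairs were Cyp26b1 and Aldh1a1 in blood endothelial-like cells (4.67% of all genes there that far higher), Rbp4 in alveolar (2.86%) and interstitial (6.49%) macrophage-like cells, and Rxra in type 1 dendritic-like cells (4.21%). Because the genes were chosen on these libraries, nothing is read from that count. The split of Rbp4 between the macrophage classes depends on the method, as given above. The pair of Aldh1a1 and blood endothelial-like cells rested on 6 and 15 UMIs (7.22 and 19.0 CPM), and 19.0 CPM was close to the 18.1 CPM of B-like cells. The log2 ratio of this pair, without the added 0.5 UMI, was 1.40 (-0.049 to 3.05), so it was not beyond counting error. The median log2 ratio of all genes was within 0.11 of 0 in every compared class except club-like (0.37), neutrophil-like (0.32) and cells with both airway gates (0.20).

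**Figure D5:**
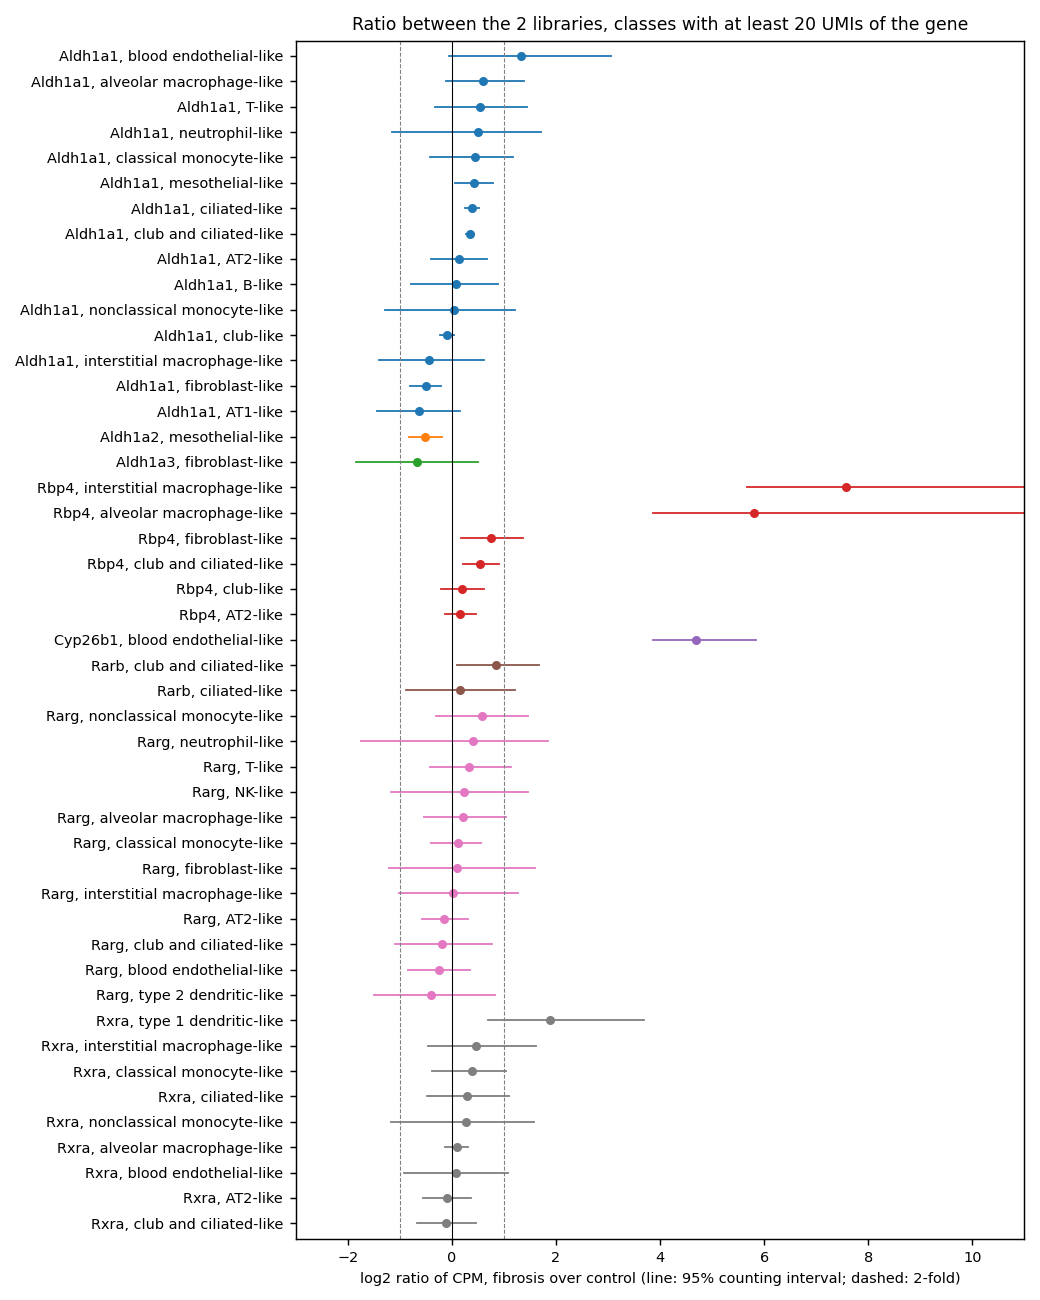
Log2 ratios of CPM, fibrosis over control with 0.5 UMI added, are shown for the 47 pairs of gene and class with at least 20 UMIs, with 95% counting intervals of the ratio without that addition as lines (ending at the right edge of the plot) and 2-fold as dashed lines. Rbp4 in both macrophage-like classes, Cyp26b1 and Aldh1a1 in blood endothelial-like cells and Rxra in type 1 dendritic-like cells lie past 2-fold. The interval of Aldh1a1 there runs from -0.049 to 3.05.

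The rest of the pathway was followed in a list of 41 genes from textbook roles. Of 238 pairs of list gene and class with at least 20 UMIs, 28 were at least 2-fold higher and 2 lower in the fibrosis library, beside 5.31% and 2.79% of all pairs. The share of all genes that far higher was largest in neutrophil-like (16.4%) and club-like cells (16.0%). Fabp5, a fatty acid binder that also carries retinoic acid, made up 11 of the 30, higher in 10 classes and lower in AT1-like cells. In interstitial macrophage-like cells Fabp5 stood at 119 CPM (82 UMIs) and 892 CPM (1642 UMIs). B-like cells stood at 32.2 and 79.3 CPM, and AT2-like cells, its highest class, stood at 1698 and 1988 CPM. In fibroblast-like and plasmacytoid dendritic-like cells 1 cell held 54 of 60 and 51 of 57 fibrosis Fabp5 UMIs. In AT1-like cells Fabp5 stood at 362 and 172 CPM, and 1 control cell held 33 of the 80 control UMIs.

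Among genes of retinol storage and uptake, Lrat, which stores retinol as its ester, stood at 11.5 CPM (2 UMIs) in control and 112 CPM (31 UMIs in 18 cells) in fibrosis fibroblast-like cells, a log2 ratio of 2.99 with 0.5 UMI added (interval 1.31 to 6.39). Stra6l stood at 4.36 and 9.76 CPM in alveolar macrophage-like cells. Among genes that convert retinol and retinaldehyde, Rdh5 was past 2-fold in AT2-like cells (2.41 and 6.86 CPM), alveolar macrophage-like cells (4 and 23 UMIs) and cells with both airway gates (3 and 27 UMIs). Dhrs3, which turns retinaldehyde back to retinol, stood at 16.3 and 33.4 CPM in classical monocyte-like and at 6.40 and 15.0 CPM in T-like cells. Rdh13 in alveolar macrophage-like and Rdh14 in mesothelial-like cells were past 2-fold at 50 and 17 fibrosis UMIs. Cyp26a1 had 4 control and 1 fibrosis UMIs, and Cyp26c1, Crabp2 and Ttr had none.

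Of genes that respond to retinoic acid, Nr2f2, a receptor of vein identity, stood at 25.3 CPM (21 UMIs) in control and 103 CPM (81 UMIs) in fibrosis blood endothelial-like cells, a log2 ratio of 2.00. In fibroblast-like cells, its highest class, it stood at 298 and 393 CPM. Tgm2 was past 2-fold in interstitial macrophage-like (39.3 and 89.1 CPM), classical monocyte-like (6.14 and 12.9 CPM) and neutrophil-like cells (21.5 and 59.5 CPM). Rarres2 was past 2-fold in classical monocyte-like cells (19 and 7 UMIs in unequal totals) and in cells with both airway gates (6.97 and 14.5 CPM). Nrip1, a co-regulator, was higher in nonclassical monocyte-like (27.3 and 62.8 CPM) and neutrophil-like cells (7.17 and 33.1 CPM). Beside Tgm2 and Nrip1, 16.4% of all genes in neutrophil-like cells were at least 2-fold higher. Ppard was lower in nonclassical monocyte-like cells (14.0 and 6.28 CPM). For Ppard there, for Rarres2 in classical monocyte-like cells and for Rdh14 in mesothelial-like cells the interval of the log2 ratio included 0, so these differences were not beyond counting error.

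Some list genes were at least 2-fold above every other compared class in both libraries, each in the same class. Rbp7 stood in blood endothelial-like cells (97.5 and 114 CPM), the class of Cyp26b1, and no other class passed 1.09 CPM. It was found in 12 control and 13 fibrosis cells of the class. Single cells held 17 of its 81 control and 35 of its 90 fibrosis UMIs there. Whether the same cells held Cyp26b1 was not examined. Rbp2 led in ciliated-like cells (38.6 and 49.4 CPM), and Adh1 (344 and 303 CPM) with Nr2f2 in fibroblast-like cells. Dhrs4 (120 and 175 CPM) and Rarres2 (10407 and 7363 CPM) led in mesothelial-like cells, the class of Aldh1a2. Dgat1 (146 and 122 CPM), Rdh12 (143 and 106 CPM) and Dhrs9 (39.1 and 56.2 CPM) led in neutrophil-like cells.

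The genes whose levels across 38 points (19 classes in 2 libraries) were most like each of the 8 were found by Pearson's r of log2(CPM + 10). The points share libraries and depth, and r is a description. For Aldh1a1 they were Fign (0.96), Fam13a (0.94) and Nr1d1 (0.91), and for Aldh1a2 Chrd (0.97), Ninl (0.97) and Nkain4 (0.96). Aldh1a3 was followed by Ms4a4d (0.97), Adamtsl2 (0.97) and Lama2 (0.97). Cyp26b1 was followed by Gm16104 (0.91), Ptprr (0.90) and Grrp1 (0.89). Rbp4 had looser matches in Cyp1b1 (0.79), Cp (0.79) and Bmp5 (0.77). Among the receptors, Rarb was most like Cetn4 (0.91), Slc1a4 (0.91) and Tbc1d32 (0.90), and Rarg most like Fam198b (0.73), Cxcl12 (0.73) and Scn7a (0.73). Rxra was most like Plet1 (0.82), which is also a marker of the alveolar macrophage gate, Clip2 (0.78) and Atp10a (0.77).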

How the data were processed

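Lung cells of 2 mice were measured by droplet single-cell RNA sequencing (10x Genomics 3′ V2). The deposited values are raw UMI counts per gene and cell, not normalised. Per the submitters' processing notes, bcl2fastq and Cell Ranger 1.3 were used with the mm10 build.

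Cells with fewer than 200 genes or over 10% mitochondrial UMIs were left out. A marker counted in a cell when its share of UMIs was at least 2 times its mean over both libraries. A class needed 3 markers, and a cell was mixed when another lineage reached 66.7% of the best share of markers. Of 176 marker symbols 2 were missing. These thresholds were set after the data were seen. Doublets were handled by the mixed class, and scrublet scores served as an alternative. Raw counts were summed per class and library. Intervals are exact Poisson (levels), Clopper-Pearson (shares) and conditional binomial (ratios), at 95%. They cover counting error only, and a count of 0 was given a limit of 3 counts. With 1 library per group no test and no p-value is given.

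The 8 genes, the 41 list genes and the markers were chosen with earlier results of these data known. Named genes were the 8, list genes past 2-fold with at least 20 UMIs or leading a class 2-fold in both libraries, and the 3 genes most like each of the 8, and 1 list gene is not reported here. On simulated counts with 100 genes raised and 100 lowered 4-fold, the 2-fold rule found 100 and 79 in blood endothelial-like cells, and called 2.56% of 7814 unchanged genes. In type 1 dendritic-like cells it found 98 and 69, and called 3.94% of 6651. The simulated counts held Poisson error alone, so spread between cells or animals is not part of these shares. Alternatives were clusters in place of gates, other marker numbers, the highest cell left out, scrublet scores, no mitochondrial filter, a floor of 2000 UMIs and scaling without the 50 top genes. Python 3.11.15, scipy 1.17.1 and scanpy 1.11.5 were used. Gene positions come from GENCODE M21 by identifier, and promoters from RefSeq on GRCm38.p6.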

Additional observations from a re-analysis of the deposited data

How the results depend on the processing

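Each log2 ratio was recomputed under 11 alternative settings, 3 of them chosen after seeing the data. The ratios of Cyp26b1 in blood endothelial-like cells and of Rbp4 in pooled macrophage-like cells kept their direction under all 11. Rxra in type 1 dendritic-like cells did so too. Aldh1a1 in blood endothelial-like cells also did, but its counting interval ran from -0.049 to 3.05, so its difference was not beyond counting error. The log2 ratio of Cyp26b1 in blood endothelial-like cells ranged from 4.41 (a marker counted at any UMI) to 5.21 (highest cell left out). The ratio of Rxra in type 1 dendritic-like cells ranged from 1.39 (clusters in place of gates) to 2.27. Rbp4 in pooled macrophage-like cells, 8.06, became 5.94 when 4 markers were required, since fewer cells with the transcript then passed the gates, with 191 fibrosis UMIs left. The ratios of Aldh1a1 in ciliated-like, Aldh1a2 in mesothelial-like, Aldh1a3 in fibroblast-like, Rarb in ciliated-like and Rarg in blood endothelial-like cells stayed within their counting intervals under all 11, as did Rxra in alveolar macrophage-like cells, which went from 0.093 to -0.053 with clusters. Rbp4 in fibroblast-like cells, 0.76, fell outside its interval, at 0.14, with a marker counted at any UMI. Aldh1a1 in club-like cells went from -0.094 to 0.18 with clusters and to -0.48 with scaling without the 50 top genes, which shifts all genes of that class by -0.38 on the log2 scale. Rbp4 in club-like cells went from 0.20 to -1.82 with a marker counted at any UMI.

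Thinning to 1000 UMIs lowered the share of blood endothelial-like cells with Cyp26b1 to 0.347% and 22.6%, as fewer UMIs were drawn. Of the 24 genes most like the 8, only 8 were found again with a pseudocount of 1 CPM, so these names depend on it. No paired analysis was possible because each group had 1 mouse. Classes of 32 mesothelial-like cells per library and sums under 20 UMIs (Rarb, Aldh1a3) limit what could be seen, and with 1 mouse per group the spread between animals is unknown.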
